A study of Homo sapiens with 6 samples.

Results

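The 34 genes described here encode the enzymes of glycolysis, their isoenzymes, and a few enzymes that feed sugars into the pathway or run parts of it backwards. They were chosen by name from 60675 genes counted in the files. Transcript counts were compared between 3 libraries of MDA-MB-231 cells grown without added vitamin C (control) and 3 libraries of the same cells given 100 μM sodium ascorbate for 3 days (vitamin C), with the medium changed before each daily dose. MDA-MB-231 is an established human breast cancer line of mesenchymal character that lacks the estrogen and progesterone receptors and the amplified HER2 receptor, and all samples came from this single line, bought from ATCC and grown in plastic wells. The comparison asked whether the transcript levels of each enzymatic step, and the balance between isoenzymes of a step, differed after vitamin C treatment. All 34 genes passed the filter on low counts, and they had been chosen among genes known to be measured in these libraries, so that passing the filter is no result.

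Glycolysis splits glucose into pyruvate in the cytosol, with a gain of ATP and NADH, and lactate dehydrogenase reduces pyruvate to lactate to regenerate NAD+. Several steps can be run by more than one gene product, and these isoenzymes differ in tissue distribution, kinetics and control. Tumor cells are known for high glycolytic flux even with oxygen present, and many glycolytic genes carry binding sites of the hypoxia-inducible factor HIF in their promoters.

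The libraries held 13434130 to 22373591 counts assigned to genes. Control libraries held 17664345 to 22373591, while vitamin C 1 and 2 held 13434130 and 14225257 and vitamin C 3 held 19553914. The share of reads without a map position was 24.2% to 34.4% in control libraries, 40.7% in vitamin C 1, 49.5% in vitamin C 2 and 24.7% in vitamin C 3, so that depth and mapping moved with treatment in a pair of libraries but not in vitamin C 3. VIM, CD44 and EGFR, which this line expresses, stood at 246, 96.3 and 21.1 RPKM (CPM per kilobase of exon, mean of controls), ESR1 had 0 counts in all 6 libraries, and ERBB2 was at 3.91 RPKM. The leukocyte marker PTPRC had at most 2 counts in a library. The fibroblast marker PDGFRB was at 1.14 RPKM in control and 1.74 RPKM in vitamin C libraries (log2 fold change 0.60, edgeR adjusted p = 0.0514, DESeq2 adjusted p = 0.0244), without overlap. The epithelial marker CDH1 was at 0.258 RPKM in control and 0.641 RPKM in vitamin C libraries with overlapping groups (log2 fold change 1.33, edgeR adjusted p = 0.113). The part of other cells in the results below was not tested. The labels do not say whether the wells of a group were separate cultures, so a p-value here reflects well-to-well spread, part of which may be technical.

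After vitamin C treatment, every step from glucose to lactate other than phosphofructokinase and pyruvate kinase had a transcript that was called lower. This does not describe the sum of a step. The summed hexokinase and enolase levels had overlapping groups. The phosphofructokinase sum was lower without overlap, although none of its genes was called. The hexokinase HK2 had the largest fall among called members, and the hexokinase HKDC1 and the pyruvate kinase PKM rose. Levels are given as CPM, the counts relative to the TMM-adjusted library size. Differences are log2 fold changes from edgeR, positive where vitamin C libraries were higher. The standard error (SE) was derived here as the absolute log2 fold change divided by the square root of the edgeR F statistic. All 15261 genes that passed the filter were tested with edgeR. At an adjusted p under 0.05, 12 members were lower, against 3.48% of all genes tested. In the other direction 4 members were higher, against 3.6% of all genes tested, and 18 were not called. The 12 lower members were HK2, GPI, PFKFB3, PFKFB4, ALDOA, TPI1, GAPDH, PGK1, PGAM1, ENO2, LDHA and PGM2. The 4 higher members were HKDC1, PKM, FBP1 and GALM. When DESeq2 was also required to pass, 12 were lower and 2 were higher, against 3.36% and 2.98% of all genes tested, and the higher calls of FBP1 and GALM were lost. In 16 members every vitamin C library lay below every control library, which held for 16.6% of all genes tested. Every vitamin C library lay above every control library in 5 members, which held for 15.7% of all genes tested, and the groups overlapped in 13. The median log2 fold change was -0.16 over the 34 members and 0.02 over all genes tested. When upper-quartile factors replaced TMM, 9 members were lower and 5 higher, so that 35.7% of the member calls were higher in place of 25%, and the share over all genes went from 50.8% to 64.6%. HK2 and PGK1 were among the genes the study picked for their change in these same libraries, so their direction here is not independent evidence. The study also measured both by qRT-PCR normalized to GAPDH and reported both as lower after vitamin C. In bulk RNA, fewer cells of a kind and less RNA per cell cannot be told apart.

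The count of lower members depended on the libraries used. Leaving out control 2 gave 4 and leaving out control 1 gave 6. The count was 7 when vitamin C 1 was dropped, 8 when either control 3 or vitamin C 2 was dropped and 12 when vitamin C 3 was dropped. Over all genes tested the count of lower genes moved as well, from 531 to 61, 59, 157, 388, 231 and 958 in the same order of control 2, control 1, vitamin C 1, control 3, vitamin C 2 and vitamin C 3, so the drop was not particular to the members. The count of higher members was 0 when either control 1 or control 2 was dropped, 1 when control 3, vitamin C 1 or vitamin C 2 was dropped and 3 when vitamin C 3 was dropped. Of the 16 called members, 3 passed without any single library, and these were PGK1, PFKFB3 and ALDOA. None of the 4 higher members did. The part of depth and mapping in these calls was not tested.

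**Figure D1:**
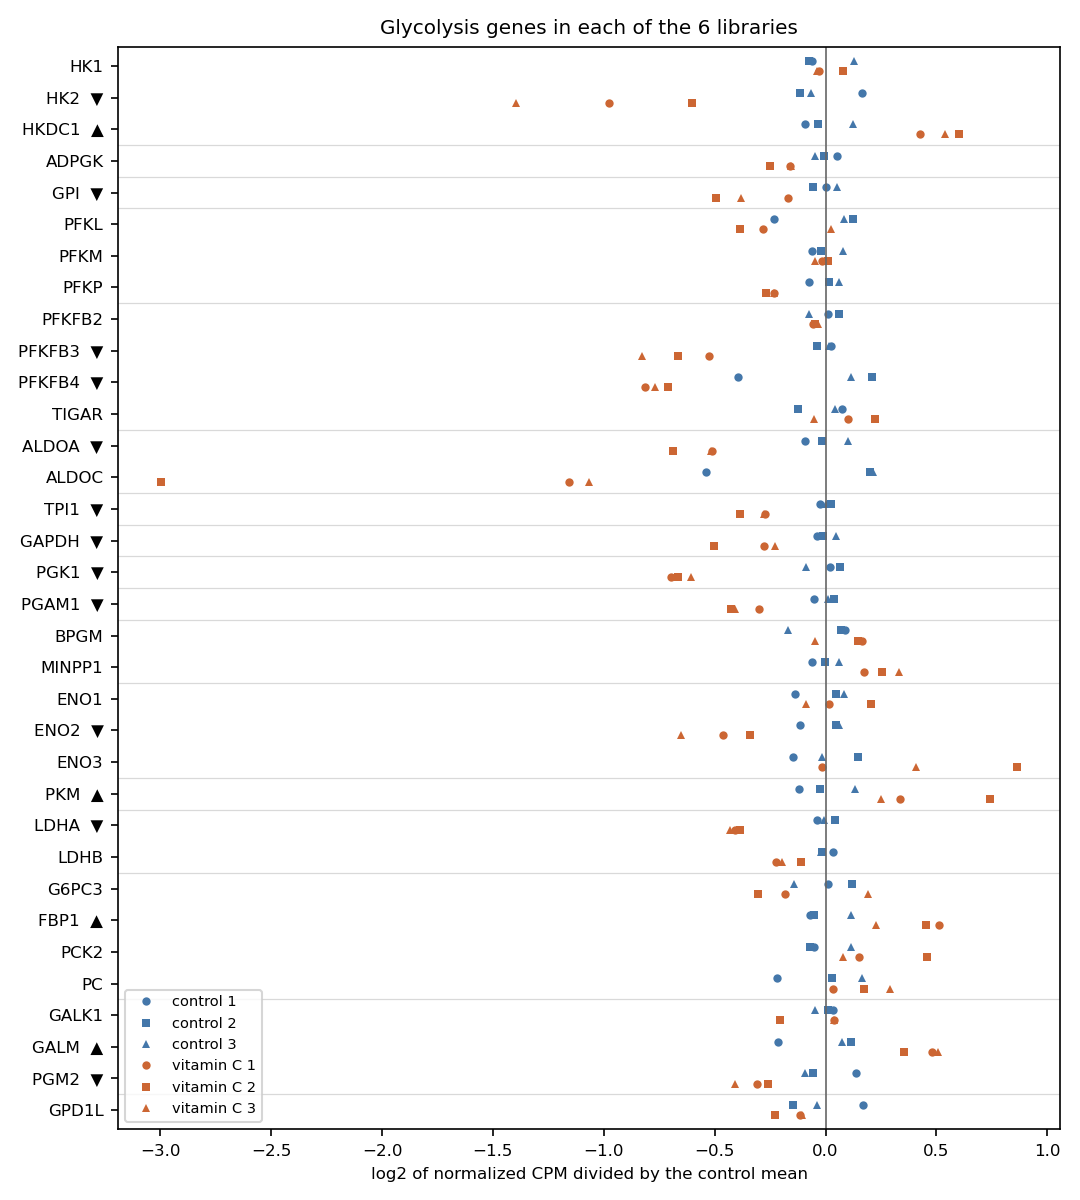
Each row is a gene, grouped by step, and each point is the log2 of normalized CPM in 1 library divided by the mean of the 3 controls, with blue for control, orange for vitamin C and a marker shape for each replicate number. Triangles after the names mark genes called lower (12) or higher (4) by edgeR at an adjusted p under 0.05, and the orange points of HK2, PFKFB3, PFKFB4 and PGK1 lie clear to the left of the blue ones.

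Hexokinases phosphorylate glucose and so trap it in the cell. HK1 is the broadly expressed form, HK2 is the form typical of muscle, fat and many tumors, and HKDC1 is a more recently described relative with hexokinase activity. HK2, on chromosome 2 (74834127 to 74893359, GRCh38), was at 105, 86.7 and 89.9 CPM in control 1, 2 and 3 and at 47.7, 61.9 and 35.8 CPM in vitamin C 1, 2 and 3. The groups did not overlap, and vitamin C 3 was the lowest of the 6 libraries. HK2 fell by 0.96 on the log2 scale (SE 0.16, edgeR adjusted p = 0.0102), a change of -48.4% in mean CPM, and its call was lost when control 1 was left out (adjusted p = 0.0508). HKDC1, which lies just before HK1 on chromosome 10 (69220332 to 69267552), was at 39.9, 41.6 and 46.4 CPM in the controls and at 57.3, 64.8 and 61.8 CPM after treatment. Every vitamin C library was above every control. HKDC1 rose by 0.52 (SE 0.09, adjusted p = 0.0102), a change of 43.9%, and its call was lost when control 1 (adjusted p = 0.0501) or control 2 (0.0580) was left out. HK1, on the same chromosome (69269984 to 69401884), was at 270, 267 and 307 CPM in the controls and at 276, 297 and 274 CPM after treatment, with overlapping groups and a fitted log2 difference of 0.00 (SE 0.08, adjusted p = 0.974). ADPGK, a kinase that spends ADP rather than ATP on glucose, was at 49.2 ± 1.64 CPM in control and 43.2 ± 1.58 CPM in vitamin C cells (SD, n = 3 each). Its groups did not overlap, and its adjusted p was 0.144.

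Per length, HK1 was the most abundant hexokinase in both groups, and the order of HK2 and HKDC1 was reversed. In control 1, 2 and 3 the RPKM of HK2 was 17.8, 14.7 and 15.2, above 9.45, 9.84 and 10.98 for HKDC1. After treatment HK2 was at 8.07, 10.5 and 6.05 RPKM, below 13.6, 15.3 and 14.6 for HKDC1 in the same libraries. Of the summed RPKM of HK1, HK2 and HKDC1, HK2 made up 23.8% ± 2.73 in control and 12.7% ± 2.61 in vitamin C cells (SD, n = 3 each), and HKDC1 15.1% ± 0.755 and 22.8% ± 1.21. HK1 made up 61.1% ± 2.03 and 64.4% ± 1.67. The summed hexokinase level was 66.9 ± 3.76 RPKM in control and 63.7 ± 4.58 RPKM after treatment, with overlapping groups. The composition of the set thus differed between the groups while its sum did not part them.

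The log2 ratio of HK2 to HKDC1 counts within a library, which no scaling of the library can move, was 1.402, 1.06 and 0.96 in the controls and -0.26, -0.06 and -0.79 after treatment, a difference of -1.51. The ratio of HK1 to HK2 differed by 0.99 and that of HK1 to HKDC1 by -0.52. In each of these 3 ratios the groups did not overlap. A two-sided exact permutation test gave p = 0.1 for each of them, the smallest p that 3 against 3 libraries allow, and 0.144 after adjustment over the 13 isoenzyme pairs compared. Over all 13 pairs, 9 had groups that did not overlap and the other 4 overlapped. Pairs of a set share genes and are not independent, and no background share was computed for pairs.

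The promoters of HK2 and HKDC1 are shown because these isoenzymes moved in opposite directions. RefSeq windows (GRCh38.p14) of 300 bases, 250 before and 50 after an annotated start, were searched on both strands for ACGTG and GCGTG, the letters at the core of HIF binding sites, and overlapping matches were counted as 1 site. Of 35116 windows in the table, 48.4% held at least 1 site and 20% held at least 2, and among 21480 windows of protein-coding genes the shares were 54.9% and 24.2%. Windows were found for 33 of the 34 members, and PFKFB2 had no entry. Capitals mark the sites, which are letters only and not evidence of binding. HK2 has 2 windows, with 3 and 4 sites, and the second (chr2:74834920-74835219, plus strand) is printed. It holds CACGTG, a match on both strands, at 2 places. The only window of HKDC1 (chr10:69220082-69220381, plus strand) holds 1 site, which lies after the start.
HK2: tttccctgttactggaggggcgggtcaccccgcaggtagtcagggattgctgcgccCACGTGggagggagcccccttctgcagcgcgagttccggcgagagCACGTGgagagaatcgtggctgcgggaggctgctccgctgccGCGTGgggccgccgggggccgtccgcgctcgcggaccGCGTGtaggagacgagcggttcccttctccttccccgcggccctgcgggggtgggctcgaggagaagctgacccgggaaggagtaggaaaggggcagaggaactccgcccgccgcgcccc
HKDC1: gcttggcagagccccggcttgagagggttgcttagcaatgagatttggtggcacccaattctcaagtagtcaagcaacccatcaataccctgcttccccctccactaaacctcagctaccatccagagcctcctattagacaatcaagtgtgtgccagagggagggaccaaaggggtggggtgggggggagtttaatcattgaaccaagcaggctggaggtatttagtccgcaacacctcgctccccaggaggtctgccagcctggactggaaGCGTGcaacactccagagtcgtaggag

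**Figure D2:**
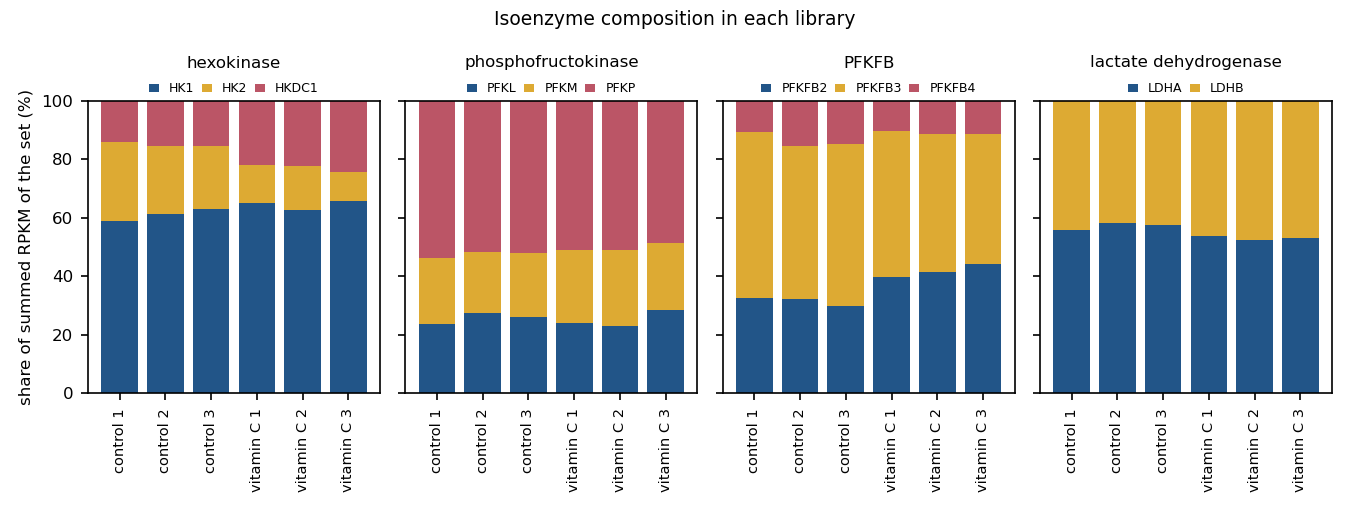
Stacked bars give, for each of the 6 libraries, the share in percent of the summed RPKM of a set that each isoenzyme holds, in 4 sets. The HK2 band narrows from 23.8% to 12.7% and the HKDC1 band widens from 15.1% to 22.8% on average, and the PFKFB2 band widens from 31.6% to 42.0%.

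GPI, the isomerase that turns glucose phosphate into fructose phosphate, is a single gene on chromosome 19 (34359480 to 34402413). It was at 115, 110 and 119 CPM in the controls and at 102, 81.3 and 87.9 CPM after treatment, with every vitamin C library below every control. GPI fell by 0.34 (SE 0.09, edgeR adjusted p = 0.0433), and its call was lost when control 1 (adjusted p = 0.130), control 2 (0.1003), control 3 (0.0906) or vitamin C 2 (0.0990) was left out. The call was also lost with upper-quartile factors (adjusted p = 0.0596), with a mean of at least 100 counts required (0.0505) and with a replicate block.

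Phosphofructokinase commits sugar to glycolysis, and its 3 genes, named for liver (PFKL), muscle (PFKM) and platelet (PFKP), encode subunits that form tetramers. None of them was called. PFKP, the most abundant per length with 52.4% ± 1.09 of the summed RPKM in control cells (SD, n = 3), was at 138, 146 and 151 CPM in the controls and at 124, 120 and 123 CPM after treatment. Its groups did not overlap, and its log2 fold change of -0.24 (SE 0.07) had an edgeR adjusted p = 0.0562 and a DESeq2 adjusted p = 0.0248. PFKL was at 82.0 ± 10.6 CPM in control and 71.2 ± 10.8 CPM in vitamin C cells (adjusted p = 0.296). PFKM was at 56.6 ± 2.81 and 56.0 ± 1.17 CPM (adjusted p = 0.910). The ratio of PFKM to PFKP was higher in every vitamin C library, with a difference of 0.23 on the log2 scale (exact permutation p = 0.1, adjusted p = 0.144). The ratios of PFKL to PFKM and of PFKL to PFKP had overlapping groups, with differences of -0.19 (exact permutation p = 0.3) and 0.04 (exact permutation p = 0.8). The summed level of the 3 genes was 35.6 ± 2.32 RPKM in control and 31.4 ± 1.22 RPKM in vitamin C cells, without overlap.

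The PFKFB genes encode enzymes with both a kinase and a phosphatase, which make and break fructose 2,6-bisphosphate, the strongest activator of phosphofructokinase. PFKFB3 has a high kinase to phosphatase activity, and PFKFB4 is known as a form of testis and tumors. PFKFB3, on chromosome 10 (6144934 to 6254644), was at 48.7, 46.6 and 48.4 CPM in the controls and at 33.3, 30.2 and 27.0 CPM after treatment. The controls lay close together and all vitamin C libraries lay far below them. PFKFB3 fell by 0.67 (SE 0.09, edgeR adjusted p = 0.00528), a change of -37.0%, and it passed without any single library. PFKFB4 was at 9.11, 13.9 and 13.0 CPM in the controls and at 6.82, 7.32 and 7.03 CPM after treatment. It was low in all libraries, and control 1 lay nearest to the vitamin C group. PFKFB4 fell by 0.77 (SE 0.16, adjusted p = 0.0231), and its call was lost when control 2 (adjusted p = 0.0900), control 3 (0.0541) or vitamin C 1 (0.0620) was left out. PFKFB2 was at 46.2 ± 2.20 CPM in control and 44.7 ± 0.396 CPM in vitamin C cells (SD, n = 3 each), with overlapping groups (log2 fold change -0.05, adjusted p = 0.731). TIGAR, a phosphatase that breaks the same activator down, was at 14.4 ± 1.03 and 15.4 ± 1.46 CPM (adjusted p = 0.628).

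Within this set PFKFB2 gained share. It made up 31.6% ± 1.42 of the summed RPKM in control and 42.0% ± 2.23 in vitamin C cells, while PFKFB3 made up 54.7% ± 2.37 and 47.0% ± 2.85 (SD, n = 3 each). The summed level was 14.3 ± 0.295 RPKM in control and 10.5 ± 0.460 RPKM after treatment, without overlap. The log2 ratio of PFKFB2 to PFKFB3 was -0.07, 0.05 and -0.14 in the controls and 0.41, 0.56 and 0.74 after treatment, a difference of 0.63. The ratio of PFKFB2 to PFKFB4 differed by 0.70, also without overlap (exact permutation p = 0.1 for each, adjusted p = 0.144). The ratio of PFKFB3 to PFKFB4 had overlapping groups and differed by 0.07 (exact permutation p = 0.7, adjusted p = 0.758).

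**Figure D3:**
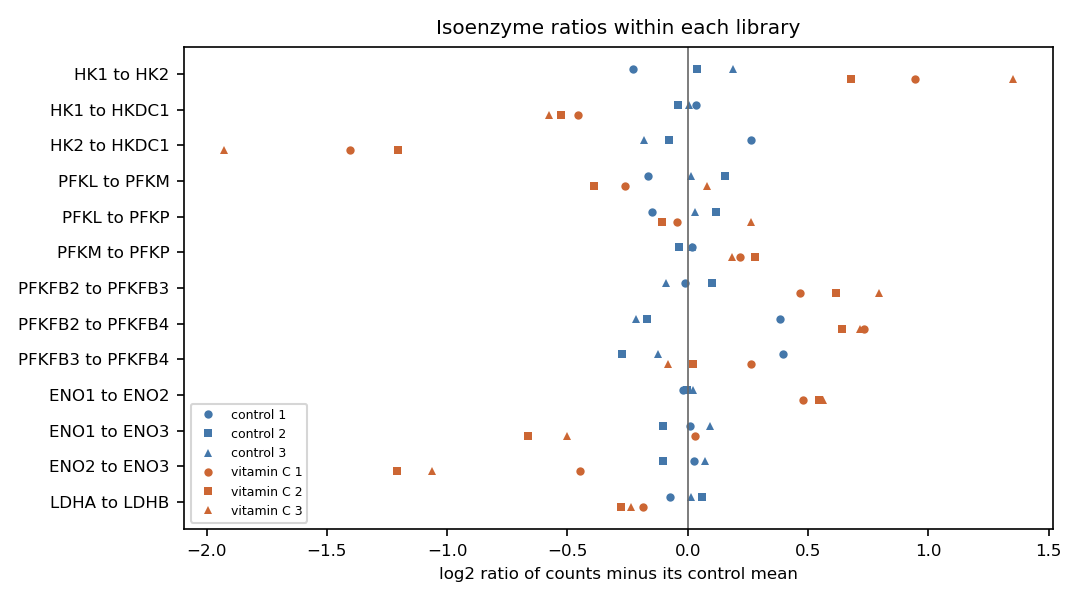
Each row is a pair of isoenzymes and each point the log2 ratio of their counts in 1 library minus the mean ratio of the 3 controls, with blue for control, orange for vitamin C and a marker shape for each replicate number. The ratio of HK2 to HKDC1 lies farthest to the left, with a mean difference of -1.51, and in 9 of the 13 pairs the orange and blue points do not overlap.

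Aldolase cleaves fructose bisphosphate into a pair of triose phosphates. ALDOA, the muscle and general form, on chromosome 16 (30064164 to 30070457), was at 178, 187 and 203 CPM in the controls and at 133, 118 and 132 CPM after treatment. The gap between the groups was wider than the spread of either. ALDOA fell by 0.57 (SE 0.08, edgeR adjusted p = 0.00651), a change of -32.7%, and it passed without any single library. ALDOC, the brain form, had 14, 30 and 27 counts in the controls and 7, 2 and 11 after treatment, and made up 0.882% ± 0.201 of the summed aldolase RPKM in control cells (SD, n = 3). Its groups did not overlap, and its adjusted p of 0.0528 missed the threshold, though it passed without vitamin C 3 (adjusted p = 0.0401). No ratio of ALDOA to ALDOC was taken, since ALDOC had fewer than 10 counts in a library.

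The promoters of PFKFB3 and ALDOA are shown because, with PGK1, they had the smallest edgeR p-values among the members. PFKFB3 has 2 windows with 1 site each, and the second (chr10:6202682-6202981, plus strand) is printed. ALDOA has windows with 1 site each at 3 starts, and the second (chr16:30064247-30064546, plus strand) is printed. In both printed windows the site is CACGTG. Each printed window is the one of its gene with CACGTG, so the presence of these letters is no result. The site is CACGC in the other window of PFKFB3 and CACGT in the other windows of ALDOA.
PFKFB3: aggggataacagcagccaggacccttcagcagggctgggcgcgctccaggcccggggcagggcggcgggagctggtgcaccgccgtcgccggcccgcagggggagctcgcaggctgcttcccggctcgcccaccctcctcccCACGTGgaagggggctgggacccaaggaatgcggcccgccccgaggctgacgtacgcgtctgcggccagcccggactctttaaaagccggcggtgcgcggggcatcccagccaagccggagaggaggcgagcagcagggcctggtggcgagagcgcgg
ALDOA: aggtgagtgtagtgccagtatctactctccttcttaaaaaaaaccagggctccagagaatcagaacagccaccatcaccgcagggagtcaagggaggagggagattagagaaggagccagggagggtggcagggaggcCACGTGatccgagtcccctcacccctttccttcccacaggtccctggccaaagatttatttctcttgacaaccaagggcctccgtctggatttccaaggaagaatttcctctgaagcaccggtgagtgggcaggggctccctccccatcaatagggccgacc

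TPI1 interconverts the triose phosphates, and GAPDH oxidizes glyceraldehyde phosphate with the reduction of NAD+. TPI1, on chromosome 12 (6867119 to 6870948), was at 447, 462 and 455 CPM in the controls and at 376, 348 and 375 CPM after treatment. The control libraries differed little among themselves and lay above all vitamin C libraries. TPI1 fell by 0.31 (SE 0.07, edgeR adjusted p = 0.0284), the smallest of the 12 falls. Its call held when vitamin C 3 was left out and was lost with each of the other 5 libraries left out, with adjusted p from 0.0524 (vitamin C 2) to 0.107 (control 2). Copies of TPI1 annotated as pseudogenes held counts equal to 19.8% of those of TPI1, the highest share among the members, and adding such counts to their parent genes left the calls at 12 lower and 4 higher members.

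GAPDH, also on chromosome 12 (6534512 to 6538374), was at 991, 1010 and 1050 CPM in the controls and at 839, 717 and 868 CPM after treatment. It fell by 0.33 (SE 0.08, edgeR adjusted p = 0.0388), with vitamin C 2 lowest. Its 65 annotated pseudogenes held counts equal to 0.622% of its own. Its call also held only when vitamin C 3 was left out, with adjusted p from 0.0675 (vitamin C 2 left out) to 0.112 (control 2 left out) otherwise. With upper-quartile factors the adjusted p was 0.0548. GAPDH is a common reference gene, and the study normalized its qRT-PCR and immunoblots to it. Taken relative to GAPDH in the same library, a description chosen after the values were seen, the log2 ratio of HK2 was -3.23, -3.54 and -3.55 in the controls and -4.13, -3.53 and -4.60 after treatment. The difference of -0.65 was smaller than that of HK2 itself, and vitamin C 2 lay within the control range. For PGK1 the difference relative to GAPDH was -0.32, without overlap. For LDHA it was -0.07, with overlapping groups. For the higher members HKDC1 and PKM it was 0.86 and 0.78, without overlap and larger than on the CPM scale.

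PGK1 makes the first ATP of the pathway by passing a phosphate to ADP. Annotated on chromosome X (77910739 to 78129295), it was at 542, 559 and 504 CPM in the controls and at 330, 338 and 351 CPM after treatment. The vitamin C libraries lay close together and far below the lowest control. PGK1 fell by 0.65 (SE 0.07, edgeR adjusted p = 0.00167), a change of -36.5%, the smallest p among the members, and it passed without any single library. PGAM1, the phosphoglycerate mutase that moves the phosphate group next, was at 69.3, 73.8 and 72.5 CPM in the controls and at 58.3, 53.5 and 54.2 CPM after treatment, again without overlap. PGAM1 fell by 0.38 (SE 0.07, adjusted p = 0.0196), and its call was lost when control 1 (adjusted p = 0.0506) or control 2 (0.0831) was left out.

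A side route through bisphosphoglycerate gave no called gene. BPGM, which makes bisphosphoglycerate, was at 25.0 ± 2.44 CPM in control and 26.7 ± 2.12 CPM in vitamin C cells (SD, n = 3 each), with overlapping groups (edgeR adjusted p = 0.619). MINPP1, a phosphatase that can remove a phosphate from it, was at 46.5, 48.3 and 50.4 CPM in the controls and at 54.6, 57.7 and 61.0 CPM after treatment. Its groups did not overlap, and its log2 fold change of 0.26 (SE 0.08) had an adjusted p of 0.0659, which passed only with upper-quartile factors (0.0478).

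Enolase forms phosphoenolpyruvate. ENO1 is the general form, ENO2 the neuronal form and ENO3 the muscle form. ENO1, with the highest CPM of all members in control cells, was at 1829, 2075 and 2127 CPM in the controls and at 2031, 2315 and 1888 CPM after treatment. The groups overlapped and the log2 fold change was 0.05 (SE 0.09, edgeR adjusted p = 0.769). ENO2, on chromosome 12 (6913745 to 6923698), was at 46.7, 52.5 and 52.9 CPM in the controls and at 36.8, 40.0 and 32.3 CPM after treatment, without overlap. ENO2 fell by 0.48 (SE 0.10, adjusted p = 0.0202), and its call was lost when control 2 (adjusted p = 0.0810) or vitamin C 1 (0.0526) was left out. ENO3 was at 5.93 ± 0.611 CPM in control and 8.18 ± 2.48 CPM in vitamin C cells (SD, n = 3 each), with overlapping groups (adjusted p = 0.163). ENO1 made up 96.7% ± 0.0545 of the summed enolase RPKM in control and 97.5% ± 0.0560 in vitamin C cells, and the sum was 399 ± 31.4 and 409 ± 42.9 RPKM. The fall of ENO2 was thus a change in a minor form, with a share of 2.97% ± 0.0386 in control and 2.08% ± 0.0639 in vitamin C cells. The log2 ratio of ENO1 to ENO2 was 5.29, 5.31 and 5.33 in the controls and 5.79, 5.86 and 5.87 after treatment, a difference of 0.53 with little spread in either group (exact permutation p = 0.1, adjusted p = 0.144). The ratio of ENO2 to ENO3 differed by -0.91 without overlap, and that of ENO1 to ENO3 by -0.38 with overlap (exact permutation p = 0.1 and 0.3).

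Pyruvate kinase makes the second ATP, and PKM, on chromosome 15 (72199029 to 72231819, minus strand), encodes both the M1 and the M2 form by alternative splicing, which gene counts cannot separate. PKM was at 1619, 1730 and 1929 CPM in the controls and at 2217, 2938 and 2089 CPM after treatment. Every vitamin C library lay above every control, and vitamin C 2, the library with the highest unmapped share, lay far above the other two. PKM rose by 0.46 (SE 0.12, edgeR adjusted p = 0.0442), a change of 37.3%. Its call held when vitamin C 3 was left out and was lost with each of the other 5 libraries left out. The adjusted p was then highest with control 1 left out (0.169), and with vitamin C 2 left out the log2 fold change was 0.29 (adjusted p = 0.0751). In vitamin C 3, with an unmapped share of 24.7%, PKM was above the highest control. The part of mapping in this result was not tested.

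Lactate dehydrogenase is a tetramer of subunits from LDHA, the form of muscle and of many tumors, and LDHB, the form of heart. LDHA, on chromosome 11 (18394560 to 18408425), was at 1700, 1799 and 1736 CPM in the controls and at 1314, 1336 and 1293 CPM after treatment. The vitamin C libraries differed by less than the gap to the lowest control. LDHA fell by 0.41 (SE 0.07, edgeR adjusted p = 0.0102), a change of -24.7%, and its call was lost when control 2 was left out (adjusted p = 0.0624). LDHB was at 664, 641 and 638 CPM in the controls and at 555, 601 and 565 CPM after treatment. Its groups did not overlap either, but its log2 fold change of -0.18 (SE 0.07) had an adjusted p of 0.130. LDHA made up 57.1% ± 1.14 of the summed RPKM in control and 53.2% ± 0.772 in vitamin C cells (SD, n = 3 each). The log2 ratio of LDHA to LDHB was 1.36, 1.49 and 1.44 in the controls and 1.24, 1.15 and 1.20 after treatment, a difference of -0.23 without overlap (exact permutation p = 0.1, adjusted p = 0.144). The summed level was 507 ± 6.01 RPKM in control and 410 ± 10.96 RPKM in vitamin C cells, without overlap.

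The promoters of PGK1 and LDHA, both lower after treatment, are shown because each held 4 sites, so their number of sites is no result. A window of ALDOC, which was not called, also held 4 sites, CACGTG among them, and is not printed. The only window of PGK1 is chrX:78103998-78104297 (plus strand). LDHA has 2 windows, with 4 sites and 1 site, and the first (chr11:18394313-18394612, plus strand) is printed, with CACGTG at 2 places.
PGK1: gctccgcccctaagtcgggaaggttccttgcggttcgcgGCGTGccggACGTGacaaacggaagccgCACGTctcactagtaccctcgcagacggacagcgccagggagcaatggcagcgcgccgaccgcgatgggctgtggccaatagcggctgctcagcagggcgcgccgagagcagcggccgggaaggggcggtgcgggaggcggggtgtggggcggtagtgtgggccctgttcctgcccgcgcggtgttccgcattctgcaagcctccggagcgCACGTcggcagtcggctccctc
LDHA: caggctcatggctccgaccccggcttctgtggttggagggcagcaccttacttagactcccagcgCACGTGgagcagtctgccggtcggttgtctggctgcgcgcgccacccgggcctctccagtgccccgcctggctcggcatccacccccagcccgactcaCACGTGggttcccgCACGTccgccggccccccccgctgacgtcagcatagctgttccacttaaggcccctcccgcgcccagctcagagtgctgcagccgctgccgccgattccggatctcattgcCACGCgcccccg

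Over the lower members, 16 of 18 windows held at least 1 site and 6 held at least 2, and 11 of the 12 genes had a site in some window, PGAM1 being the exception. All 4 higher members had a site in their single window. Of the 38 windows of the 17 members that were not called and had an entry, 19 held a site, and 14 of these 17 genes had a site in some window. Windows of a gene can overlap each other. Sites were present in lower, higher and uncalled members.

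Per length, the members spanned from 424 RPKM for GAPDH to 0.443 RPKM for ALDOC in control cells. The next in order were ENO1 at 385, LDHA at 290, LDHB at 217, PKM at 205 and TPI1 at 168 RPKM. GAPDH at 413, 421 and 438 RPKM in the controls lay above ENO1 at 351, 398 and 408 RPKM without overlap, while LDHB and PKM overlapped. After treatment ENO1 was first at 398 RPKM, followed by GAPDH at 337, PKM at 282, LDHA at 218 and LDHB at 192 RPKM. By this length PKM moved from the fifth to the third place, and in vitamin C cells it lay at 259, 343 and 244 RPKM, above 218, 222 and 215 RPKM for LDHA in the same libraries. In control cells the order of these genes was the opposite in every library. The places depend on the length used. With the longest transcript in place of all exons, an alternative chosen after the data were seen, the control order was ENO1 at 789, LDHA at 779, GAPDH at 591, PKM at 583 and LDHB at 421 RPKM, and after treatment it was ENO1 at 816, PKM at 801, LDHA at 587, GAPDH at 470 and LDHB at 373 RPKM. PKM then moved from the fourth to the second place, and it again lay below LDHA in every control and above it in every vitamin C library. The 34 members together held 0.939%, 1.00% and 1.01% of gene counts in the controls and 0.917%, 0.977% and 0.904% after treatment, so that the summed share had overlapping groups.

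**Figure D4:**
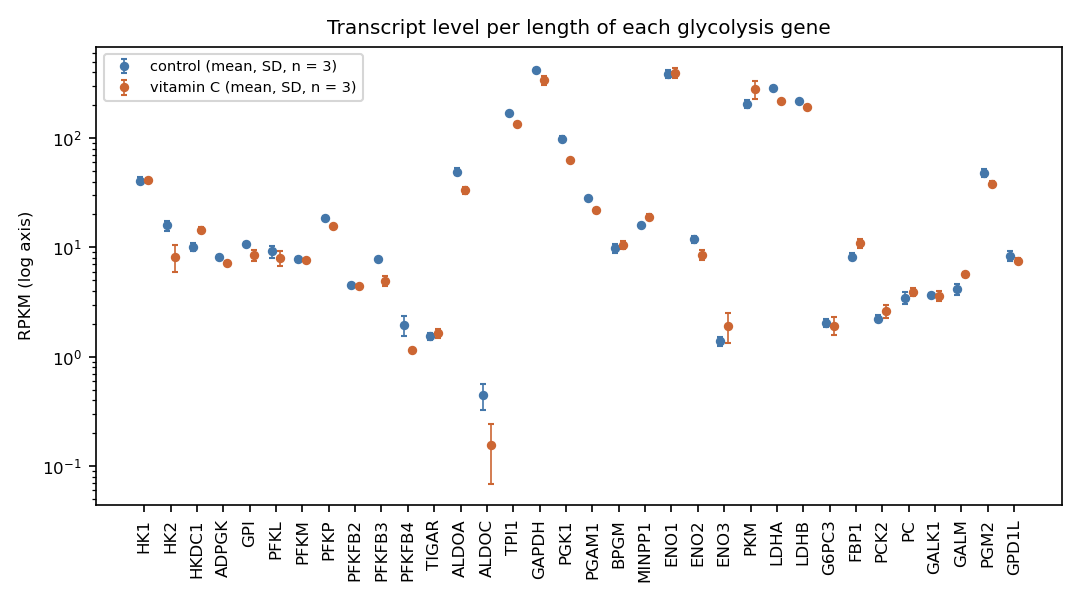
Mean RPKM of each member on a log axis, with blue for control and orange for vitamin C and bars for the SD of 3 libraries. GAPDH (424 and 337 RPKM), ENO1 (385 and 398 RPKM) and PKM (205 and 282 RPKM) stand among the highest points, and ALDOC (0.443 and 0.155 RPKM) is the lowest.

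Among enzymes that run glycolysis backwards, FBP1, the fructose bisphosphatase that opposes phosphofructokinase, was at 14.97, 15.2 and 17.0 CPM in the controls and at 22.4, 21.5 and 18.4 CPM after treatment. Every vitamin C library was above every control, with vitamin C 3 nearest to them. FBP1, on chromosome 9 (94603133 to 94640249), rose by 0.40 (SE 0.11, edgeR adjusted p = 0.0498) and missed the threshold in DESeq2 (adjusted p = 0.0530). It also missed the threshold with limma-voom, with DESeq2 median-ratio factors in edgeR, with a replicate block and in thinned libraries. Its call held only when vitamin C 3 was left out, with adjusted p from 0.0608 (control 3 left out) to 0.164 (control 1 left out) otherwise. The mitochondrial enzymes PCK2, which makes phosphoenolpyruvate from oxaloacetate, and PC, which carboxylates pyruvate, were not called. PCK2 was at 9.27 ± 0.671 CPM in control and 10.9 ± 1.58 CPM in vitamin C cells (adjusted p = 0.285), and PC at 25.3 ± 3.38 and 28.5 ± 2.53 CPM (SD, n = 3 each, adjusted p = 0.350). G6PC3, a glucose phosphatase of the endoplasmic reticulum, was at 15.5 ± 1.42 and 14.7 ± 2.72 CPM (adjusted p = 0.770).

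Among genes by which other sugars and glycerol join the pathway, 1 rose, 1 fell and 2 were not called. GALM, a mutarotase for galactose, was at 9.39, 11.8 and 11.5 CPM in the controls and at 15.2, 13.9 and 15.5 CPM after treatment. GALM rose by 0.45 (SE 0.12, edgeR adjusted p = 0.0472), but its call was lost with each single library left out (adjusted p from 0.0610 to 0.155) or in DESeq2 (adjusted p = 0.0505). The call of GALM was also lost with a replicate block and in thinned libraries. PGM2, a mutase of sugar phosphates, was at 194, 170 and 165 CPM in the controls and at 142, 147 and 133 CPM after treatment. PGM2, on chromosome 4 (37826660 to 37862937), fell by 0.32 (SE 0.08, adjusted p = 0.0402) and held its call only when control 3 was left out, with adjusted p from 0.0512 (vitamin C 2 left out) to 0.141 (control 1 left out) otherwise. With upper-quartile factors the adjusted p was 0.0526. GALK1, galactokinase, was at 8.94 ± 0.263 CPM in control and 8.71 ± 0.830 CPM in vitamin C cells (adjusted p = 0.884), and GPD1L, related to glycerol phosphate dehydrogenase, at 39.4 ± 4.43 and 35.6 ± 1.67 CPM (SD, n = 3 each, adjusted p = 0.357).

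Of 18 further isoenzymes of these steps, such as PKLR, the pyruvate kinase of liver and red cells, none had enough counts to be tested. PKLR had 0 counts in all 6 libraries. The highest counts in a library were 23 for ENO4 and 13 for GAPDHS.

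Other genes were taken from 3 lists of neighbouring routes, and their counts stand against 3.48% lower and 3.6% higher over all genes tested. For glucose transport and the fate of pyruvate, 3 of 12 genes tested were lower and none higher, with a median log2 fold change of -0.03. PDK1 is a kinase that inhibits pyruvate dehydrogenase. It was at 61.8, 64.8 and 56.3 CPM in the controls and at 32.0, 30.9 and 29.2 CPM after treatment. PDK1 fell by 0.99 (SE 0.09, edgeR adjusted p = 0.000289), a larger fall than that of any called member, and it was also picked by the study in these libraries. The study reported PDK1 as lower by qRT-PCR as well. SLC2A1, the main glucose transporter, fell by 0.42 (adjusted p = 0.0108, and 0.0572 without control 2), and PDK3, a kinase of the same kind as PDK1, fell by 0.42 (adjusted p = 0.0436, and 0.0994 to 0.153 when control 1, control 2, vitamin C 1 or vitamin C 2 was left out). In the pentose phosphate pathway, which branches off after hexokinase, 2 of 12 genes tested were higher and none lower, with a median of 0.02. H6PD, an enzyme of this route in the endoplasmic reticulum, rose by 0.47 (adjusted p = 0.0367). Its call held only when vitamin C 3 was left out, with adjusted p up to 0.122 (control 1 left out) otherwise. In sugar entry and side branches, 1 of 21 genes tested was higher and none lower, with a median of -0.07. This was GFPT2, which takes fructose phosphate into hexosamines, and it rose by 0.52 (SE 0.08, adjusted p = 0.0067). Over the lists together 3 genes were lower and 3 higher. The count of lower genes was 1 with control 2 left out and 6 with vitamin C 3 left out, and the count of higher genes was 1 with any single library but vitamin C 3 left out.

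Of the 34 members, 22 overlap a gene on the opposite strand in the annotation, among them PFKM with SENP1, TPI1 with SPSB2, FBP1 with PCAT7 and ENO3 with PFN1. The overlap was taken over whole gene spans, introns included, so most of a span need not share exons with the neighbour. The sources used here do not name a strand setting for the counting, so how reads on shared stretches were assigned is not known. Reads set aside as ambiguous were 1.12% (vitamin C 2) to 1.79% (control 1) of a library. The annotated span of PGK1 holds PGAM4, with at most 2 counts in a library, on the opposite strand and ATP7A on the same strand. The 12 members without such a neighbour include HK2, GPI, PFKFB4, PGAM1, ENO2, PKM, LDHA and PGM2.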

How the data were processed

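RNA was sequenced after depletion of ribosomal RNA from 3 control and 3 vitamin C samples of MDA-MB-231 cells. Per the submitters' processing notes, the tools were CASAVA 1.4, Trim Galore and STAR, on build hg38. Each file the authors deposited holds the unnormalized read counts of 1 library, by Ensembl gene. The release of Ensembl, the version of STAR and the strandedness of the counting were not given in the sources used here. The files' 4 summary lines, 50.6% to 69.7% of a library, entered neither library sizes nor tests. A deposited table of all samples was not used here.

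Identifiers were named from GENCODE 44, which held 93.2% of them. Counts were tested with edgeR 4.0.16 in R 4.3.3 (TMM factors of 0.972 to 1.02, filterByExpr with a minimum count of 10, glmQLFit and glmQLFTest, group only), with Benjamini-Hochberg adjustment over all 15261 genes tested, and with DESeq2 1.42.0 as the second tool. The scripts were tested on simulated data. CPM and RPKM were computed here, RPKM over the union of a gene's exons. Isoenzyme ratios came from counts within a library, and a gene with under 10 counts in a library got none. The biological coefficient of variation was 9.40%. Libraries of a group differed beyond sampling noise, with a chi-square of at least 4.99 per degree of freedom.

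The members, the 4 lists of other pathway genes and the rules were chosen with earlier results of these data known. All 34 members are named. From each list the text names up to 4 called genes with the smallest p, or the 2 most abundant where none was called; PKLR was named as a well known form, after its counts were seen, and the values of some list genes are not reported here. Alternatives were other factors and filters, DESeq2, limma-voom (limma 3.58.1), a stricter threshold, a replicate block, thinned libraries, added pseudogene counts, another transcript length and each library left out in turn.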

Additional observations from a re-analysis of the deposited data

How the results depend on the processing

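Depth limits ALDOC, with 2 to 30 counts in a library, and isoenzymes below the filter. No fall or rise of a called member changed direction under any alternative. Of 339 fold changes under other settings, 297 kept their direction and side of the threshold, 30 lost a call, 5 gained a call and 7 turned in sign. With a library left out, 149 of 204 kept both, 46 lost a call, 1 gained a call and 8 turned. The causes were not tested.

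The 12 lower members became 3 at an adjusted p under 0.01 (3 also in both tools), and 4 to 12 with a library left out (4 to 11 in both tools). Over all genes tested, 531 lower became 34 at that threshold and 59 to 958 with a library left out, and 549 higher became 49 and 69 to 942. The 4 higher members became 2 by DESeq2, 2 in thinned libraries, 0 at an adjusted p under 0.01 and 0 to 3 with a library left out. Over all genes, 549 higher became 586 by DESeq2 and 485 in thinned libraries. In both tools the 2 higher members became 4 with a mean of at least 100 counts, 0 at an adjusted p under 0.01 and 0 to 3 with a library left out. Of the other pathway genes, 3 were lower, which became 8 with no low-count filter, 6 by DESeq2, 1 at an adjusted p under 0.01 and 1 to 6 with a library left out. The 3 higher became 1 at an adjusted p under 0.01 and 1 to 3 with a library left out. Over all genes, 531 lower became 1166 with no low-count filter and 857 by DESeq2, so the rise was not particular to these lists.

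The labels do not say whether replicate numbers pair the samples. Same-numbered libraries deviated from their group means with correlations of -0.016, -0.0556 and -0.0452. Differently numbered libraries had correlations of -0.0482 to 0.107, so these values cannot decide whether samples were paired. With a replicate block 8 members were lower and 1 was higher, and 1 was higher in both tools. The calls lost with this block were those of GPI, TPI1, GAPDH, PGM2, PKM, FBP1 and GALM. Over all genes tested, 531 lower became 338 and 549 higher became 393 with this block.

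The turns in sign were in uncalled genes near 0. The log2 fold change of PFKM was 0.020 with upper-quartile factors and 0.0032 with a mean of at least 100 counts, and -0.048 to 0.019 with a library left out. That of HK1 was -0.018 with no low-count filter, -0.011 by DESeq2, -0.0027 in thinned libraries and -0.036 to 0.068 with a library left out. That of GALK1 was 0.0019 with upper-quartile factors and -0.080 to 0.037 with a library left out. G6PC3 was at 0.014 in thinned libraries and -0.24 to 0.027 with a library left out, and ENO1 at -0.038 to 0.11. The log2 ratio of PFKL to PFKP differed by -0.077 to 0.11 and that of PFKFB3 to PFKFB4 by -0.067 to 0.27 with a library left out.

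With the longest transcript as the length, shares of the summed RPKM in control and vitamin C cells were 71.2% and 73.6% for HK1, 17.0% and 8.91% for HK2, 11.8% and 17.5% for HKDC1, 60.1% and 57.7% for PFKP, 16.6% and 13.5% for PFKFB4, 97.3% and 97.8% for ENO1 and 64.9% and 61.1% for LDHA. For PFKFB3 it was 51.6% in control cells. The order of HK2 and HKDC1 stayed reversed.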
